A study of Mus musculus with 12 samples.

Results

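The comparison described here set neuronal cultures with a PRMT1 knockdown against cultures of the unmodified parent cells, 6 arrays of the 12 in the series. D3 is a mouse embryonic stem cell line, and every culture was differentiated through embryoid bodies, floating aggregates grown without LIF, and sampled at day 16 as stem cell derived neurons. The siPRMT1 group held 3 cultures of a D3 line with an siRNA sequence against PRMT1, and the D3 group held 3 cultures of unmodified D3 cells that carried no siRNA. Of the 6 other arrays, 3 came from a D3 line with a sequence against PRMT8 (siPRMT8) and 3 from a D3 line with a scrambled sequence (siSCR). Each group was 1 cell line. The labels do not say whether the lines were clonal or whether the replicates were separate differentiations, so p-values here measure the spread between these cultures. Total RNA was read on whole-transcript arrays, and each value is the log2 intensity of 1 probe set, so a difference of 1 is a 2-fold change. Of 35556 probe sets, 21789 carried 1 gene symbol. They covered 19938 symbols, and the 14953 genes left after the dimmest 25% were set aside were tested.

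PRMT1 is the main enzyme that places asymmetric dimethyl groups on arginine in mammalian cells, and its substrates include histones and many RNA-binding proteins. PRMT8 is its closest relative, is anchored at the plasma membrane and is expressed mainly in neurons. Stem cells that leave the pluripotent state pass through a neural tube-like progenitor before they switch on the genes of axons, synapses and ion channels. Mouse embryos without PRMT1 do not develop far past implantation.

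Prmt1, the target, was lower in every siPRMT1 culture. It read 7.72, 7.95 and 7.59 in siPRMT1 cultures, against 8.69, 8.86 and 8.71 in D3 cultures. The groups did not overlap, and Prmt1 was 2-fold lower in siPRMT1 cultures (log2 change -1.0 ± 0.088 (SE), adjusted p = 0.000166). The siSCR cultures read 8.84, 8.74 and 8.86, and against them the Prmt1 difference was -1.06, adjusted p = 0.000115. The siPRMT8 cultures read 9.27, 9.20 and 9.27, above both controls, and Prmt1 differed between the knockdowns (log2 difference -1.49 ± 0.088 (SE), adjusted p = 2.36e-05). Groups without overlap are common in these data, since siPRMT1 and D3 values did not overlap for 6603 of the 14953 tested genes, or 44.2%.

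The siPRMT1 arrays were less alike than the D3 arrays. Correlations over all tested genes ran from 0.972 to 0.995 among siPRMT1 cultures and from 0.996 to 0.997 among D3 cultures, and the median SD of a gene was 0.122 in siPRMT1 and 0.0614 in D3. Over the 6 arrays the first principal component, 68.7% of the variance, separated the groups. The second, 23.3%, held siPRMT1 replicate 2 at -23.5, against 18 and 9.0 for siPRMT1 replicates 1 and 3. siSCR replicate 1 also stood apart from the other siSCR arrays on the first component over all 12 arrays, at 0.1 against -26.2 and -22.2. It enters the D3 comparison through the shared estimate of the spread and through the 12-array means behind the brightness filter and the choice of probe sets. With siPRMT1 replicate 2 left out the number of changed genes was 4639 and with siSCR replicate 1 left out it was 4454, against 3952 with all arrays.

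In all, 3952 of 14953 genes (26.4%) changed at a limma adjusted p under 0.05. Higher in siPRMT1 were 1750 (11.7%), and lower were 2202 (14.7%). The sizes were uneven: 407 genes (2.72%) fell 2-fold or more and 12 (0.0803%) rose 2-fold or more. The median difference over all tested genes was 0.0507 on the log2 scale. The split between directions depends on scaling. Of the calls, 44.3% were higher in siPRMT1 with the deposited values, 55.5% after quantile normalization and 65.5% after median centring, which moved the median of all genes to 0.119. The plot of all genes shows the long lower tail.

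**Figure D1:**
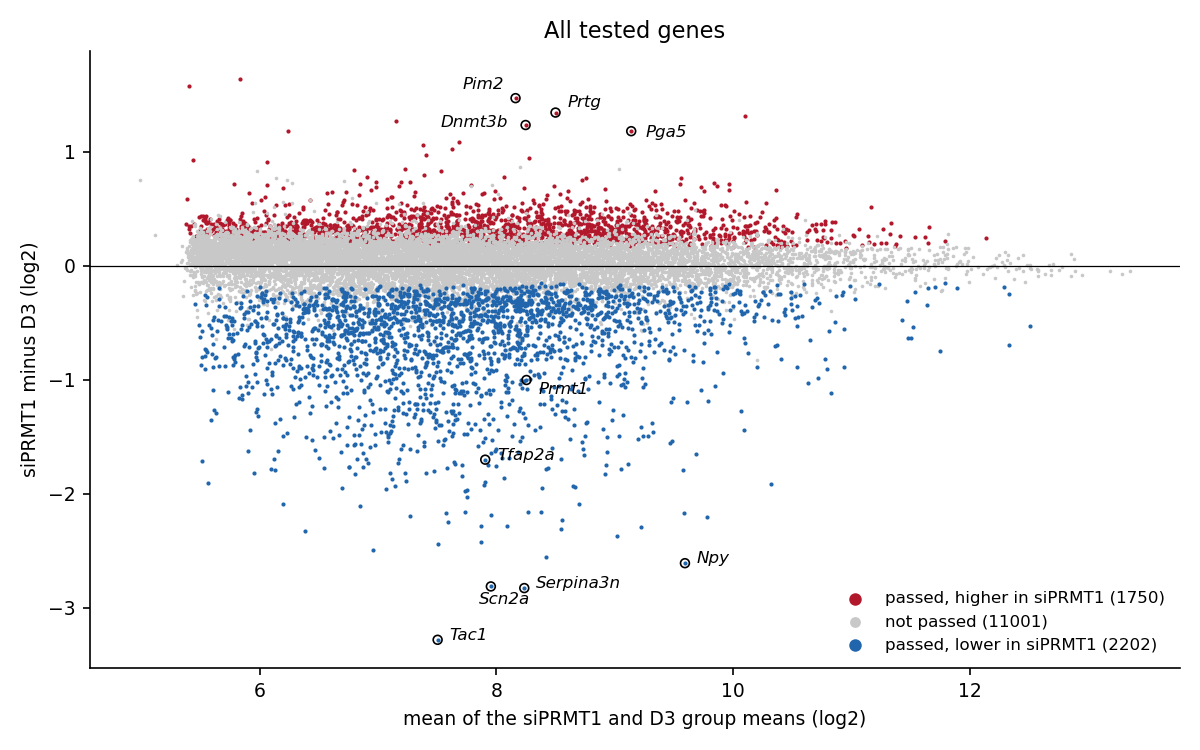
Each point is 1 of the 14953 tested genes, with the mean of the siPRMT1 and D3 group means on the x axis (log2) and the siPRMT1 minus D3 difference on the y axis (log2). Red points passed and were higher in siPRMT1 (1750), blue points passed and were lower (2202), and the lower tail reaches -3.28 for Tac1 while the upper one ends near 1.47 for Pim2 and 1.64 for the microRNA gene Mir363.

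Of 9 PRMT family members tested, 3 were lower and 3 higher in siPRMT1, against 14.7% of all tested genes lower and 11.7% higher. Besides Prmt1, the membrane-bound Prmt8 read 6.35, 6.89 and 6.67 in siPRMT1 cultures, against 7.37, 7.41 and 7.40 in D3 cultures, with no overlap (log2 change -0.75 ± 0.16 (SE), adjusted p = 0.00488). The Prmt8 difference from siSCR did not pass (-0.32, adjusted p = 0.177), and siSCR replicate 1 was also low, at 6.60 against 7.18 and 7.10 in the other siSCR cultures. Prmt2, a weakly active family member that binds nuclear receptors, fell by the next largest amount (log2 change -0.64 ± 0.11 (SE), adjusted p = 0.00212). The ribosome-associated Prmt3 was higher (log2 change 0.40 ± 0.099 (SE), adjusted p = 0.0118), although not against siSCR (0.25, adjusted p = 0.1). The symmetric dimethylase Prmt5 was slightly higher (log2 change 0.23 ± 0.058 (SE), adjusted p = 0.0126), a call that ended without siPRMT1 replicate 3 (0.20, adjusted p = 0.0524). Prmt9 was also called higher (log2 change 0.25 ± 0.078 (SE), adjusted p = 0.036), but not without siPRMT1 replicate 1 or 3 or any of the 3 D3 arrays (adjusted p = 0.058 to 0.133) and not against siSCR (0.20, adjusted p = 0.0936). Without siPRMT1 replicate 3 only 1 family member, Prmt3, was higher. Prmt6, Prmt7 and Carm1 did not pass, with differences of -0.03, 0.09 and 0.16. The plot of the family shows Prmt1 as the lowest member.

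**Figure D2:**
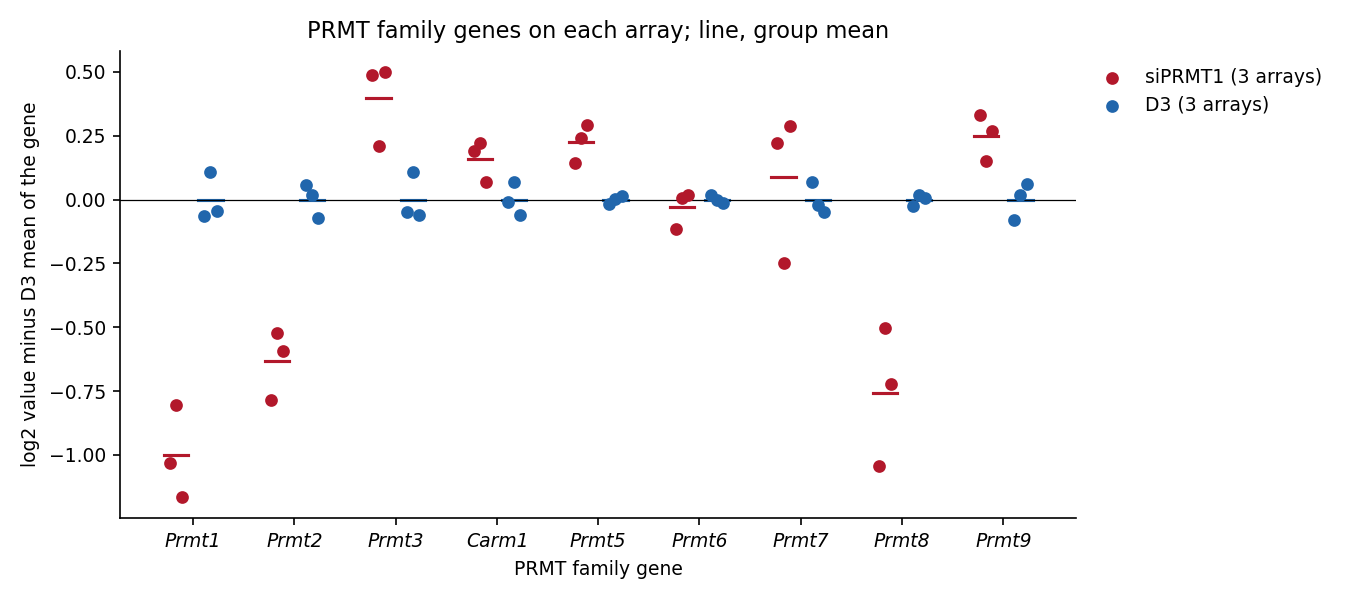
Each point is 1 array, as the log2 value minus the D3 mean of that gene, for the 9 tested PRMT family genes, with siPRMT1 in red left of D3 in blue and a line at each group mean. Prmt1, Prmt2 and Prmt8 lie below D3 in all 3 siPRMT1 cultures, and Prmt7 spreads on both sides of it.

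The 15 largest decreases were led by Tac1, Serpina3n, Scn2a and Npy. Tac1, the precursor of the neuropeptide substance P, read 6.38, 4.69 and 6.51 in siPRMT1 cultures, against 9.09, 9.19 and 9.16 in D3 cultures. All 3 siPRMT1 cultures were low and replicate 2 was lowest (log2 change -3.28 ± 0.61 (SE), adjusted p = 0.00254), a 9.72-fold decrease. Scn2a, a voltage-gated sodium channel of axons, read 6.99, 5.91 and 6.75 in siPRMT1 cultures, against 9.30, 9.39 and 9.39 in D3 cultures, again with replicate 2 lowest (log2 change -2.81 ± 0.38 (SE), adjusted p = 0.00056). Npy, another neuropeptide precursor, read 8.60, 7.61 and 8.67 in siPRMT1 cultures, against 10.88, 10.82 and 10.99 in D3 cultures (log2 change -2.61 ± 0.39 (SE), adjusted p = 0.000871). In such bulk cultures fewer cells of a type and less RNA per cell cannot be told apart. Against siSCR the differences were smaller, -2.53, adjusted p = 0.0148 for Tac1, -2.39, adjusted p = 0.00228 for Scn2a and -1.41, adjusted p = 0.0266 for Npy.

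The other genes among the 15 with the largest decreases were Serpina3n at -2.83, a protease inhibitor made by reactive astrocytes, Tmem130 at -2.56, the potassium channel partner Kcnip1 at -2.49, the vesicle GTPase Rab3c at -2.44, the neural adhesion molecule Chl1 at -2.42, the calmodulin-binding Pcp4 at -2.37, Cacng3 at -2.33, Gria2 at -2.31, Vsnl1 at -2.29, Necab1 at -2.28, the extracellular matrix protein Reln at -2.28 and the potassium channel Kcnk9 at -2.25. The ranking took only genes whose siPRMT1 and D3 values did not overlap. The calls of these 12 held with each siPRMT1 or D3 array left out and with siSCR as the control. The siSCR values were lower than D3 in part, with a difference of -1.57 for Kcnk9 against siSCR. Each siSCR mean includes siSCR replicate 1, which stood apart from the other siSCR arrays.

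Outside the small RNA genes described further on, the 15 largest increases were led by Pim2, Prtg, Trh, Foxi3 and Dnmt3b. They too were taken only from genes without overlap. Pim2, a growth-promoting serine/threonine kinase, read 8.32, 9.60 and 8.78 in siPRMT1 cultures, against 7.41, 7.47 and 7.40 in D3 cultures, with replicate 2 highest and no overlap (log2 change 1.47 ± 0.29 (SE), adjusted p = 0.0038). Dnmt3b, the de novo DNA methyltransferase of the early embryo, read 8.58, 9.01 and 9.01 in siPRMT1 cultures, against 7.67, 7.71 and 7.50 in D3 cultures (log2 change 1.24 ± 0.15 (SE), adjusted p = 0.000354). Lin28a, which blocks maturation of let-7 microRNAs in undifferentiated cells, read 7.76, 8.68 and 7.98 in siPRMT1 cultures, against 7.02, 7.19 and 7.13 in D3 cultures (log2 change 1.03 ± 0.19 (SE), adjusted p = 0.00272). These calls held against siSCR as well, at 1.26, adjusted p = 0.0135 for Pim2, 1.06, adjusted p = 0.00122 for Dnmt3b and 1.09, adjusted p = 0.00367 for Lin28a. Prtg, a neural tube receptor of the immunoglobulin family, rested more on 1 culture. It read 8.29, 10.18 and 9.06 in siPRMT1 cultures, against 7.71, 8.27 and 7.50 in D3 cultures (log2 change 1.35 ± 0.37 (SE), adjusted p = 0.0203), and it was 0.85, adjusted p = 0.0301 without siPRMT1 replicate 2, 1.29, adjusted p = 0.0654 without D3 replicate 1 and 1.18, adjusted p = 0.0769 without D3 replicate 3. Against siSCR the Prtg difference was larger (2.06, adjusted p = 0.00409).

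Trh, the precursor of thyrotropin-releasing hormone, was the 1 higher neuropeptide precursor and read 10.57, 11.02 and 10.70 in siPRMT1 cultures, against 9.28, 9.85 and 9.20 in D3 cultures (log2 change 1.32 ± 0.18 (SE), adjusted p = 0.000625). Fgf5, a marker of the epiblast, read 7.63, 8.28 and 7.82 in siPRMT1 cultures, against 6.81, 6.88 and 6.86 in D3 cultures (log2 change 1.06 ± 0.18 (SE), adjusted p = 0.00152). Lef1, a transcription factor that carries Wnt signals, read 8.70, 8.78 and 8.78 in siPRMT1 cultures, against 7.78, 8.03 and 7.61 in D3 cultures (log2 change 0.95 ± 0.10 (SE), adjusted p = 0.000298), and its difference from siSCR was smaller (0.51, adjusted p = 0.00762). Krt5, a basal keratin, read 6.60, 7.33 and 6.56 in siPRMT1 cultures, against 5.56, 5.80 and 5.58 in D3 cultures (log2 change 1.18 ± 0.30 (SE), adjusted p = 0.0126). The siSCR cultures read 7.95, 6.68 and 6.79, so that the difference against them had the opposite sign and did not pass (-0.31, adjusted p = 0.487). The rest of the 15 were Foxi3 at 1.28, Pga5 at 1.18, Map7d3 at 1.09, Hmcn1 at 0.97 (against siSCR 0.59), Vrtn at 0.91, Aspa at 0.84 and Plcg2 at 0.83.

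**Figure D3:**
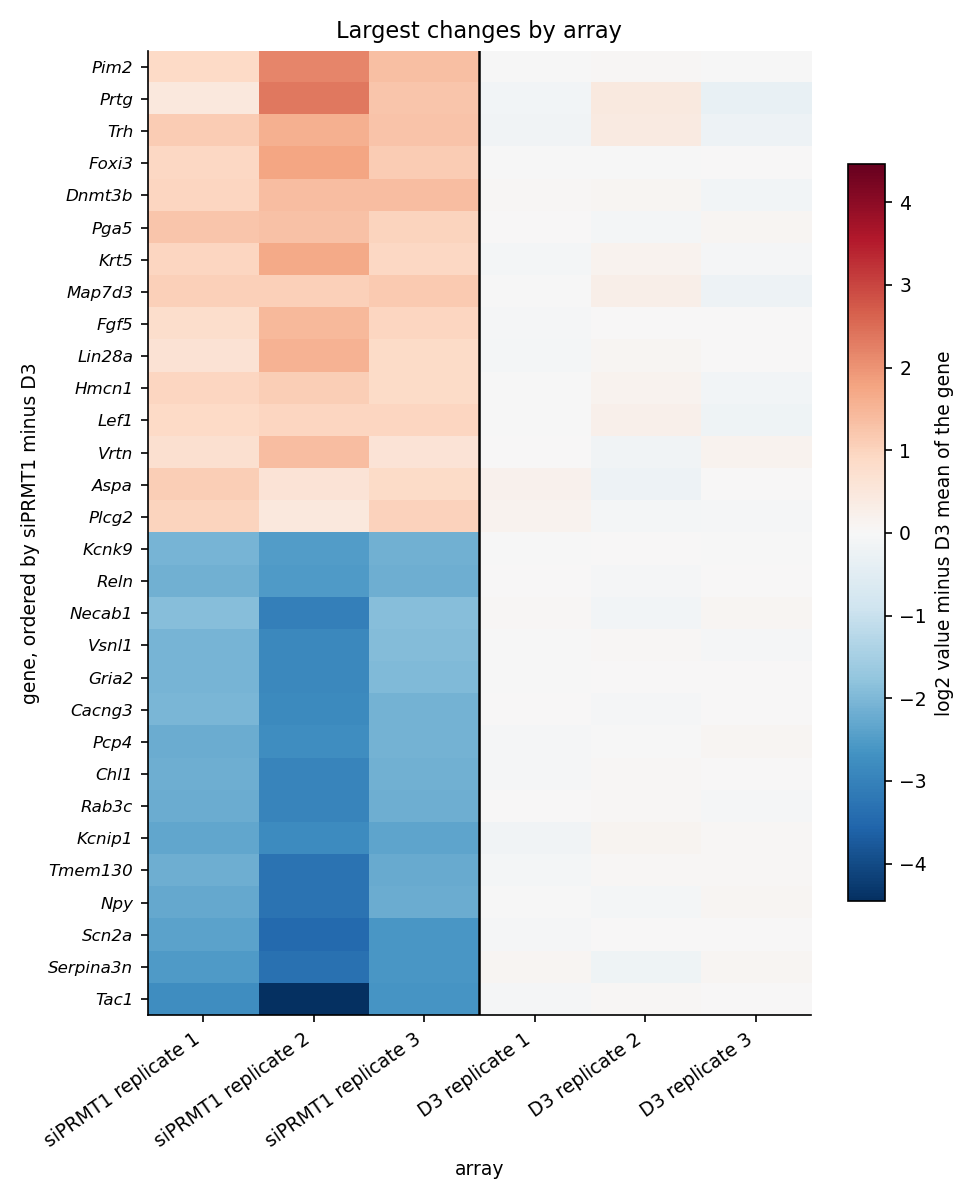
Rows are the 15 genes with the largest increases and the 15 with the largest decreases that passed without overlap, columns are the 3 siPRMT1 and 3 D3 arrays, and the colour is the log2 value minus the D3 mean of the gene. siPRMT1 replicate 2 has the deepest colour in most rows, and for Tac1 it reads 4.69 against 6.38 and 6.51 in siPRMT1 replicates 1 and 3.

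The cultures were checked against cell type markers. Map2 and Dcx were bright in every culture, and so were genes of undifferentiated stem cells. Dppa5a, a stem cell protein, read 12.29, 10.61 and 12.04 in siPRMT1 cultures, against 11.86, 11.78 and 11.97 in D3 cultures, with overlapping groups and siPRMT1 replicate 2 lowest. Nanog (-0.06, adjusted p = 0.817) and Zfp42 (0.17, adjusted p = 0.622) did not pass. The microglial and blood markers Aif1, Csf1r and Ptprc, the endoderm marker Afp, the muscle marker Myog and the astrocyte marker S100b lay below the brightness filter in both groups. Aif1 for example read 4.61, 4.76 and 4.73 in siPRMT1 and 4.55, 4.61 and 4.61 in D3.

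Of 34 pan-neuronal and axonal genes, 30 were lower in siPRMT1 and 1 was higher, with a median difference of -1.14 against 0.0507 over all tested genes and 14.7% of all genes lower. Leaving out single siPRMT1 or D3 arrays left between 27 and 31 lower. Dcx, a microtubule protein of young migrating neurons, read 8.48, 8.88 and 8.80 in siPRMT1 cultures, against 10.25, 10.28 and 10.24 in D3 cultures, with no overlap (log2 change -1.54 ± 0.23 (SE), adjusted p = 0.000974). Map2, the dendritic microtubule protein, read 9.28, 9.54 and 9.48 in siPRMT1 cultures, against 10.72, 10.72 and 10.66 in D3 cultures (log2 change -1.27 ± 0.17 (SE), adjusted p = 0.000593). Mapt, the axonal protein tau, read 7.37, 7.03 and 7.21 in siPRMT1 cultures, against 8.84, 8.85 and 8.97 in D3 cultures (log2 change -1.68 ± 0.27 (SE), adjusted p = 0.00134). The groups were clearly separated for all 3 of these cytoskeletal genes.

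Rbfox3, the NeuN splicing factor of postmitotic neurons, was lower (log2 change -1.44 ± 0.22 (SE), adjusted p = 0.000902), and so was the neuronal RNA-binding protein Elavl3 (log2 change -0.95 ± 0.14 (SE), adjusted p = 0.000946). L1cam, an adhesion molecule of growing axons, fell to 6.97, 6.68 and 6.87 in siPRMT1, against 8.47, 8.77 and 8.52 in D3 (log2 change -1.74 ± 0.20 (SE), adjusted p = 0.000354). Nsg2, a protein of neuronal endosomes, was the lowest of the list (log2 change -1.86 ± 0.25 (SE), adjusted p = 0.00061), followed by the granin Scg3 (log2 change -1.78 ± 0.21 (SE), adjusted p = 0.000354). Tubb3, the neuronal tubulin, read 7.80, 8.35 and 7.57 in siPRMT1 cultures, against 9.34, 9.31 and 8.73 in D3 cultures (log2 change -1.22 ± 0.33 (SE), adjusted p = 0.0182). Its siPRMT1 values spread more, and the call ended without siPRMT1 replicate 3 (-1.05, adjusted p = 0.0681), without D3 replicate 1 (-1.11, adjusted p = 0.0673), without D3 replicate 2 (-1.13, adjusted p = 0.0641) and with siSCR as the control (-0.47, adjusted p = 0.342). The neurofilaments did not follow the list. Nefl was at -0.82, adjusted p = 0.0966 and Nefm at 0.14, adjusted p = 0.733, and the 1 higher member, Nefh at 0.30, adjusted p = 0.0332, lost its call without siPRMT1 replicate 1 or 3 or any of the 3 D3 arrays (adjusted p = 0.0763 to 0.0906) and against siSCR (0.02, adjusted p = 0.882). Against siSCR the Dcx difference was -0.95, adjusted p = 0.0166. The mean over the list, relative to D3, was -0.79 in siSCR replicate 1 and 0.019 and -0.026 in siSCR replicates 2 and 3. For the synaptic vesicle and release genes described next it was -0.57 in siSCR replicate 1 and 0.11 and 0.045 in siSCR replicates 2 and 3. On both lists siSCR lay below D3 through that 1 culture.

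Genes of the presynaptic terminal fell with them. This and the neuronal lists below, up to axon guidance, are read against 11.7% of all tested genes higher and 14.7% lower. Of 30 synaptic vesicle and release genes, 22 were lower and 0 higher, with a median of -1.08. Syt4, a synaptotagmin of vesicle membranes, read 7.50, 6.61 and 7.45 in siPRMT1 cultures, against 9.29, 9.32 and 9.43 in D3 cultures, with siPRMT1 well below D3 (log2 change -2.16 ± 0.33 (SE), adjusted p = 0.000981). Syt1, the calcium sensor of fast release, read 7.92, 7.76 and 8.04 in siPRMT1 cultures, against 9.59, 9.63 and 9.49 in D3 cultures (log2 change -1.66 ± 0.29 (SE), adjusted p = 0.00179). Snap25, a membrane fusion protein listed with the pan-neuronal genes, read 8.63, 8.70 and 8.74 in siPRMT1 cultures, against 10.20, 10.35 and 10.19 in D3 cultures (log2 change -1.56 ± 0.31 (SE), adjusted p = 0.0038). Each of these was apart from D3 in all 3 siPRMT1 cultures. Syp, the vesicle protein synaptophysin, was also lower (log2 change -1.54 ± 0.21 (SE), adjusted p = 0.000548). Slc17a6, which loads glutamate into vesicles, fell by a similar size (log2 change -1.76 ± 0.22 (SE), adjusted p = 0.000408), whereas the other vesicular loaders Slc17a7 at 0.20, adjusted p = 0.0906 and Slc32a1 at -0.20, adjusted p = 0.12 did not pass.

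On the receiving side, 16 of 26 postsynaptic scaffold and adhesion genes were lower and 1 was higher, with a median of -0.81. Lrrtm2, a postsynaptic adhesion protein that binds neurexins, read 6.69, 6.19 and 6.60 in siPRMT1 cultures, against 8.77, 8.68 and 8.54 in D3 cultures (log2 change -2.17 ± 0.28 (SE), adjusted p = 0.000458). Dlg2, a scaffold of glutamate synapses, was at -1.76, adjusted p = 0.00116. The adhesion protein Lrrc4c was at -1.74, adjusted p = 0.00313 and the neurexin Nrxn3 at -1.49, adjusted p = 0.00177. The exception was the widely expressed scaffold Dlg1 at 0.22, adjusted p = 0.0263, a call lost without siPRMT1 replicate 1 or 3 or D3 replicate 2 or 3 (adjusted p = 0.0595 to 0.0956) and against siSCR (0.19, adjusted p = 0.0565).

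Among ionotropic glutamate receptors and their partners, 18 of 21 were lower and 0 were higher, with a median of -0.81, and between 13 and 17 were lower with 1 array left out. Gria2, the AMPA receptor subunit that limits calcium entry, read 7.62, 6.83 and 7.73 in siPRMT1 cultures, against 9.68, 9.71 and 9.72 in D3 cultures, with no overlap (log2 change -2.31 ± 0.28 (SE), adjusted p = 0.000389). Cacng3, an auxiliary subunit that carries AMPA receptors to the membrane, read 5.50, 4.72 and 5.44 in siPRMT1 cultures, against 7.58, 7.51 and 7.55 in D3 cultures (log2 change -2.33 ± 0.34 (SE), adjusted p = 0.000829). The NMDA receptor subunit Grin2b fell by less (log2 change -1.56 ± 0.22 (SE), adjusted p = 0.000699). Cacng3 averaged below the 5.43 brightness filter in siPRMT1. It was tested only because other groups were brighter, so the filter favoured a lower call for Cacng3. Of 6 metabotropic glutamate receptors, 3 were lower and 0 higher, namely Grm7 at -1.54, adjusted p = 0.000473, Grm3 at -1.45, adjusted p = 0.0126 and Grm5 at -1.32, adjusted p = 0.00634.

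For GABA, the main inhibitory transmitter, 12 of 18 genes of synthesis, transport and reception were lower and 0 were higher, with a median of -0.81. The count was 7 without D3 replicate 1 and also 7 without D3 replicate 2, and it was 8 without siPRMT1 replicate 3. Gabra3, a receptor subunit, read 6.80, 6.5 and 6.89 in siPRMT1 cultures, against 8.76, 8.76 and 8.78 in D3 cultures (log2 change -2.03 ± 0.40 (SE), adjusted p = 0.00342), and Gabra2 read 5.35, 5.12 and 5.57 in siPRMT1 cultures, against 6.92, 7.04 and 6.96 in D3 cultures (log2 change -1.63 ± 0.21 (SE), adjusted p = 0.000502). The siPRMT1 mean of Gabra2 lay below the 5.43 brightness filter. Gabra2 was tested only because other groups were brighter, so the filter favoured a lower call there. Gad2, one of the enzymes that make GABA, was apart from D3 in every siPRMT1 culture (log2 change -1.47 ± 0.14 (SE), adjusted p = 0.000166). The transporter Slc6a11 was lower too (log2 change -1.98 ± 0.18 (SE), adjusted p = 0.000166). Gad1, the other GABA-making enzyme, was at -0.57, adjusted p = 0.025, and the call ended without siPRMT1 replicate 2 or any of the 3 D3 arrays (adjusted p = 0.0585 to 0.0728). For Gad2 the difference from siSCR was -0.96, adjusted p = 0.00134.

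Ion channels showed the same direction. Of 5 voltage-gated sodium channel genes, 4 were lower and 0 higher, with a median of -1.63. Scn3b, an auxiliary subunit, read 7.80, 6.91 and 7.61 in siPRMT1 cultures, against 9.70, 9.61 and 9.69 in D3 cultures (log2 change -2.23 ± 0.28 (SE), adjusted p = 0.000426), and Scn3a, a channel of immature neurons, read 5.93, 5.62 and 6.05 in siPRMT1 cultures, against 7.46, 7.59 and 7.46 in D3 cultures (log2 change -1.63 ± 0.22 (SE), adjusted p = 0.000565). Of 24 potassium channel genes, 17 were lower and 0 higher, with a median of -0.62. Beside Kcnip1 and Kcnk9, the A-type channel genes Kcnd2 (log2 change -1.57 ± 0.34 (SE), adjusted p = 0.00626) and Kcna4 (log2 change -1.29 ± 0.21 (SE), adjusted p = 0.00135) fell. Of 15 voltage-gated calcium channel genes, 12 were lower and 1 was higher, with a median of -0.60. The subunits Cacnb4 (log2 change -1.77 ± 0.27 (SE), adjusted p = 0.000998) and Cacna2d1 (log2 change -1.43 ± 0.16 (SE), adjusted p = 0.000299) were lower, the last of them at -0.86, adjusted p = 0.00447 against siSCR. The higher one, Cacna2d4 at 0.33, adjusted p = 0.0399, lost its call without siPRMT1 replicate 2 (0.21, adjusted p = 0.0975) and without siPRMT1 replicate 3 or D3 replicate 1 or 2 (adjusted p = 0.058 to 0.129).

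Neuropeptides split. Of 21 precursor genes tested, 9 were lower and 1, Trh, was higher, with a median of -0.31. Cbln1, a secreted organizer of synapses, read 6.90, 6.93 and 7.03 in siPRMT1 cultures, against 8.87, 8.87 and 8.80 in D3 cultures (log2 change -1.90 ± 0.18 (SE), adjusted p = 0.0002), and against siSCR it was at -0.89, adjusted p = 0.00758. Adcyap1, the precursor of the peptide PACAP, was lower than in D3 (log2 change -1.34 ± 0.21 (SE), adjusted p = 0.0011) and did not pass against siSCR (-0.36, adjusted p = 0.257). Sst, the precursor of somatostatin, did not pass (-0.31, adjusted p = 0.41). Of 10 calcium-binding and subtype marker genes, 7 were lower and 0 higher, with a median of -0.94. Calb1, the calcium buffer calbindin, read 5.23, 4.82 and 5.42 in siPRMT1 cultures, against 7.04, 7.44 and 7.26 in D3 cultures (log2 change -2.09 ± 0.20 (SE), adjusted p = 0.0002). Most of that difference was shared by siSCR, which read 5.34, 6.10 and 5.94, so that siPRMT1 was at -0.64, adjusted p = 0.0479 against it. Reln, Vsnl1 and Necab1 remained lower against siSCR by larger amounts, at -1.65, adjusted p = 0.00363 for Reln, -1.86, adjusted p = 0.0197 for Vsnl1 and -2.09, adjusted p = 0.00453 for Necab1.

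Among genes of motor neurons and of neurons with other transmitters, the directions were mixed, with 4 of 15 higher and 4 lower. Over all tested genes 11.7% were higher and 14.7% lower. With the lowest 50% of genes left out fewer members were tested, and 0 were higher and 2 lower. Higher were Isl1, a motor neuron factor (log2 change 0.42 ± 0.10 (SE), adjusted p = 0.0122), and Slc5a7, the choline transporter of cholinergic terminals (log2 change 0.41 ± 0.097 (SE), adjusted p = 0.00931). The other higher calls were less firm. The vesicular acetylcholine transporter Slc18a3 at 0.32, adjusted p = 0.0312 lost its call without siPRMT1 replicate 2 or 3 or any of the 3 D3 arrays (adjusted p = 0.0658 to 0.0994) and against siSCR (0.24, adjusted p = 0.106). The dopamine transporter Slc6a3 at 0.26, adjusted p = 0.0352 lost its call without siPRMT1 replicate 2 or any of the 3 D3 arrays (adjusted p = 0.0551 to 0.119) and against siSCR (0.07, adjusted p = 0.591), so that 2 genes remained higher without any of those 4 arrays. Lower were Phox2a, a factor of noradrenergic neurons (log2 change -0.90 ± 0.18 (SE), adjusted p = 0.00402), Lmx1b (log2 change -0.44 ± 0.076 (SE), adjusted p = 0.00186), the sensory neuron factor Pou4f1 (log2 change -0.84 ± 0.093 (SE), adjusted p = 0.0003) and the dopaminergic factor Nr4a2 (log2 change -0.64 ± 0.14 (SE), adjusted p = 0.00635). Against siSCR, Lmx1b was at -0.25, adjusted p = 0.0381, and Pou4f1 (-0.27, adjusted p = 0.0612) and Nr4a2 (-0.09, adjusted p = 0.666) did not pass. Th, the dopamine-synthesis enzyme, was at 0.02, adjusted p = 0.879.

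**Figure D4:**
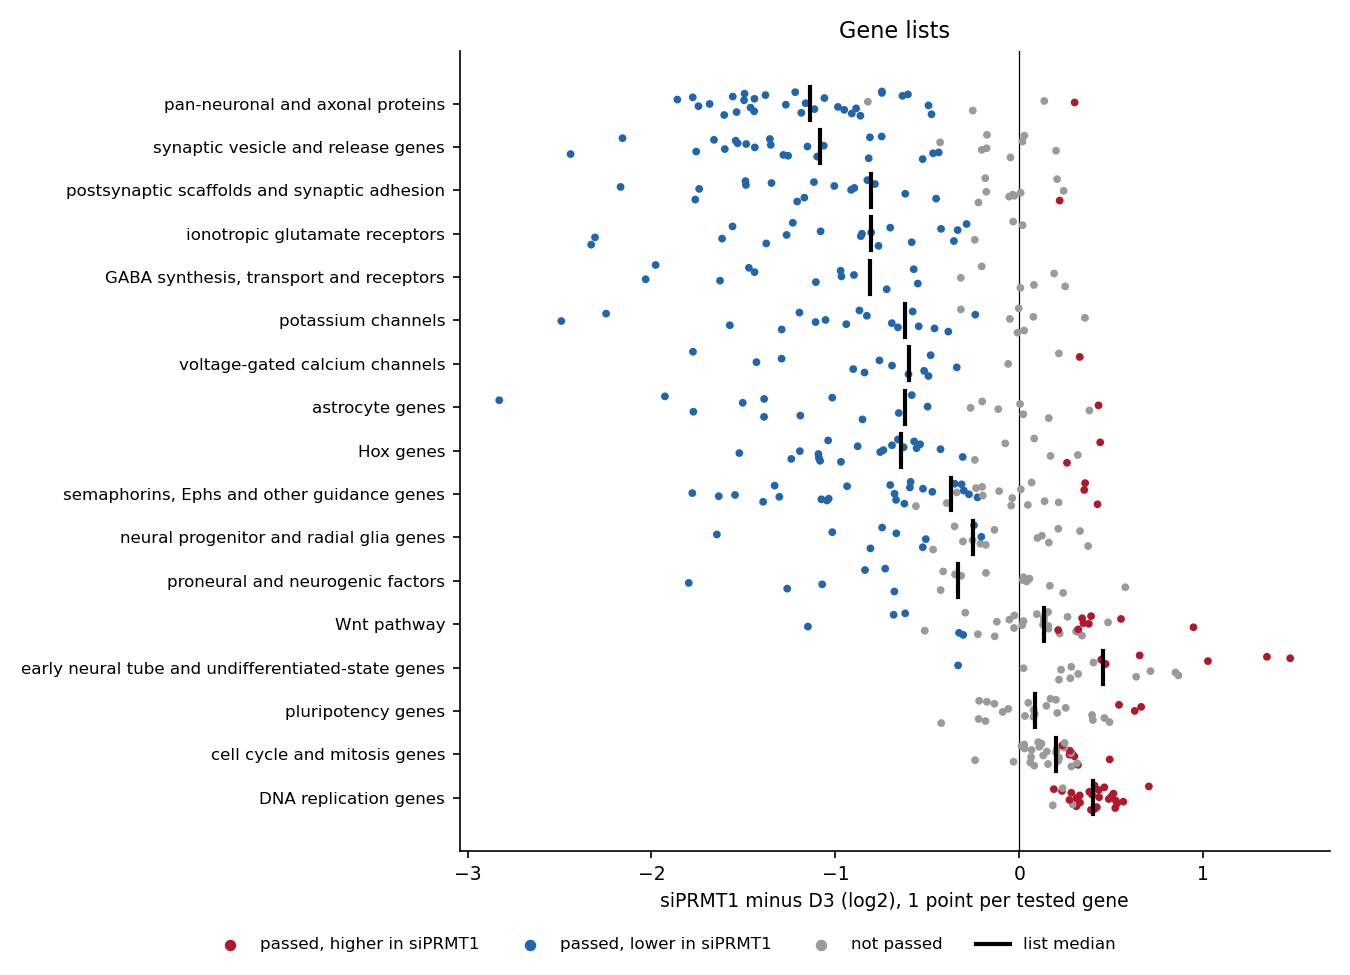
Each point is 1 tested gene of a list, placed on the x axis by its siPRMT1 minus D3 difference (log2), and lists run down the y axis with a black bar at the list median. Red and blue points passed in the higher and lower direction and grey points did not, and the medians run from -1.14 for pan-neuronal genes to 0.40 for DNA replication genes.

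Axon guidance genes were lower in 23 of 40 and higher in 3, with a median of -0.37, and the higher count was 1 without siPRMT1 replicate 2 or D3 replicate 3. Robo2, a receptor for the repellent Slit proteins, read 8.17, 8.01 and 8.31 in siPRMT1 cultures, against 9.94, 9.97 and 9.92 in D3 cultures, without overlap (log2 change -1.78 ± 0.23 (SE), adjusted p = 0.000458). The semaphorin receptors Plxna4 (log2 change -1.63 ± 0.25 (SE), adjusted p = 0.000906) and Plxnc1 (log2 change -1.55 ± 0.26 (SE), adjusted p = 0.00156) and the ephrin receptor Epha5 (log2 change -1.39 ± 0.22 (SE), adjusted p = 0.00106) fell by similar amounts. Against siSCR, Epha5 was at -0.93, adjusted p = 0.0132. Of the higher genes, the call of Sema3e at 0.35, adjusted p = 0.00911 was absent against siSCR (-0.05, adjusted p = 0.713). The ligand Slit2 was lower (log2 change -0.70 ± 0.11 (SE), adjusted p = 0.00115), while the netrin receptor Dcc at -0.56, adjusted p = 0.11 and Unc5c at 0.07, adjusted p = 0.824 did not pass.

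The beta protocadherins, cell surface proteins whose combinations label single neurons, were singled out after their values were seen. All 20 of the cluster's tested genes were lower in siPRMT1, with a median of -1.19 and a range from -0.61 to -1.50, against 14.7% of all tested genes that were lower. Pcdhb19 read 5.53, 6.03 and 5.81 in siPRMT1 cultures, against 7.26, 7.28 and 7.34 in D3 cultures (log2 change -1.50 ± 0.20 (SE), adjusted p = 0.000549). Pcdhb8, among the smaller differences, read 6.22, 6.43 and 6.29 in siPRMT1 cultures, against 6.93, 7.05 and 6.82 in D3 cultures, and its groups did not overlap either (log2 change -0.63 ± 0.10 (SE), adjusted p = 0.00142). With 1 siPRMT1 or D3 array left out, 18 to 20 remained called, and 14 were lower against siSCR, where Pcdhb19 was at -0.97, adjusted p = 0.00796 and Pcdhb8 at -0.35, adjusted p = 0.0368. These genes are near-identical copies, so their probe sets may read each other's transcripts and the 20 values are not independent. Pcdhb5, Pcdhb7, Pcdhb10 and Pcdhb14 averaged below the 5.43 brightness filter in siPRMT1 (5.14, 5.35, 5.33 and 5.30). They were tested only because other groups were brighter, so the filter favoured lower calls at these genes.

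Astrocyte genes were lower as well, in 12 of 20 tested, with 1 higher and a median of -0.62. Over all tested genes 14.7% were lower and 11.7% higher. Serpina3n read 7.11, 6.31 and 7.05 in siPRMT1 cultures, against 9.73, 9.46 and 9.75 in D3 cultures (log2 change -2.83 ± 0.30 (SE), adjusted p = 0.000265), and its difference from siSCR was similar, at -2.69, adjusted p = 0.000498. Sparcl1, a secreted protein of mature astrocytes, read 7.72, 7.41 and 7.91 in siPRMT1 cultures, against 9.63, 9.64 and 9.56 in D3 cultures (log2 change -1.93 ± 0.19 (SE), adjusted p = 0.00022). Atp1b2, a glial sodium pump subunit, read 7.79, 7.09 and 7.79 in siPRMT1 cultures, against 9.39, 9.22 and 9.37 in D3 cultures (log2 change -1.77 ± 0.22 (SE), adjusted p = 0.000434). In each the 3 siPRMT1 values lay at least 1 unit below D3. Id4, an inhibitor of differentiation factors, fell (log2 change -1.50 ± 0.19 (SE), adjusted p = 0.000429), with -0.93, adjusted p = 0.00682 against siSCR, and so did Aldh1l1, a folate enzyme used as an astrocyte marker (log2 change -1.39 ± 0.20 (SE), adjusted p = 0.00083), and the glutamate transporter Slc1a3 (log2 change -1.02 ± 0.13 (SE), adjusted p = 0.000425). Aqp4, the astrocyte water channel, was lower by less (log2 change -0.66 ± 0.12 (SE), adjusted p = 0.00245), with -0.44, adjusted p = 0.0259 against siSCR. Gfap, the astrocyte intermediate filament, was called lower at -0.50, adjusted p = 0.0214, but not without siPRMT1 replicate 2 or D3 replicate 2 or 3 (adjusted p = 0.0555 to 0.0809), and against siSCR it was much lower (-1.71, adjusted p = 0.000115). The gap junction gene Gja1 was the 1 higher member, at 9.52, 9.59 and 9.67 in siPRMT1 cultures, against 9.22, 9.20 and 9.07 in D3 cultures (log2 change 0.43 ± 0.067 (SE), adjusted p = 0.00106), and against siSCR it was at 0.71, adjusted p = 0.000198. Glul (0.0039, adjusted p = 0.973) and Apoe (0.02, adjusted p = 0.959) did not pass.

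Of 15 oligodendrocyte lineage genes, 2 were higher and 0 lower, against 11.7% of all tested genes higher and 14.7% lower. Myrf, a myelin gene regulator, was higher (log2 change 0.78 ± 0.15 (SE), adjusted p = 0.00268) but not against siSCR (0.30, adjusted p = 0.179), and the precursor gene Cspg4 at 0.26, adjusted p = 0.0222 lost its call without siPRMT1 replicate 3 or any of the 3 D3 arrays (adjusted p = 0.0591 to 0.0672) and against siSCR (0.18, adjusted p = 0.115). Without siPRMT1 replicate 1 the higher count was 4. Mbp, the myelin basic protein, was at -0.0022, adjusted p = 0.988 and Olig2 at -0.41, adjusted p = 0.0927.

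Hox genes, which set position along the hindbrain and spinal cord, were lower across all 4 clusters. Of 26 tested, 19 were lower and 2 higher, against 14.7% of all tested genes lower and 11.7% higher, with a median of -0.64, and 18 or 19 were lower with any 1 siPRMT1 or D3 array left out. The higher count was 1 without siPRMT1 replicate 2, D3 replicate 1 or D3 replicate 3. By cluster, 5 of 8 HoxA, 7 of 8 HoxB, 4 of 5 HoxC and 3 of 5 HoxD genes were lower. Hoxb3 had the largest decrease and read 8.16, 7.53 and 7.89 in siPRMT1 cultures, against 9.48, 9.34 and 9.33 in D3 cultures (log2 change -1.52 ± 0.18 (SE), adjusted p = 0.000354). Hoxb5 read 6.74, 6.49 and 6.78 in siPRMT1 cultures, against 7.89, 7.80 and 7.89 in D3 cultures (log2 change -1.19 ± 0.14 (SE), adjusted p = 0.000354). Hoxa5 read 6.40, 5.91 and 6.36 in siPRMT1 cultures, against 7.37, 7.46 and 7.56 in D3 cultures (log2 change -1.24 ± 0.20 (SE), adjusted p = 0.00114), and Hoxd4 was at -1.04, adjusted p = 0.000687. The groups were apart for each of these.

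Other members behaved less evenly. Hoxb9 was lower (log2 change -0.56 ± 0.097 (SE), adjusted p = 0.00183), by more against siSCR (-1.06, adjusted p = 0.000182). Hoxc5 (log2 change -0.88 ± 0.18 (SE), adjusted p = 0.00422) and Hoxc6 (log2 change -0.69 ± 0.16 (SE), adjusted p = 0.00971) were also lower by more against siSCR, at -1.56, adjusted p = 0.000512 for Hoxc5 and -1.23, adjusted p = 0.00108 for Hoxc6, and Hoxc4 was at -0.63, adjusted p = 0.00727 against D3 and at -0.95, adjusted p = 0.00171 against siSCR. Hoxa7 was lower by little (-0.31, adjusted p = 0.007), and by -0.47, adjusted p = 0.00163 against siSCR. Hoxa9 (0.17, adjusted p = 0.103), Hoxc9 (-0.08, adjusted p = 0.489) and Hoxd9 (0.08, adjusted p = 0.462) did not pass. Hoxd11 was higher (log2 change 0.44 ± 0.097 (SE), adjusted p = 0.0065) but not against siSCR (0.20, adjusted p = 0.169). Hoxa10, the other higher member at 0.26, adjusted p = 0.0241, lost its call without siPRMT1 replicate 1 or 2 or D3 replicate 1 or 3 (adjusted p = 0.0523 to 0.0984), and against siSCR its difference had the opposite sign (-0.15, adjusted p = 0.185). Hoxa2, in contrast, was lower than in D3 (log2 change -0.97 ± 0.19 (SE), adjusted p = 0.00302) and not than in siSCR (-0.18, adjusted p = 0.529), where it read 6.92, 7.29 and 7.29.

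Other position genes gave mixed counts, read against 11.7% of all tested genes higher and 14.7% lower. Of 20 midbrain and hindbrain factors, 7 were lower and 1 was higher. Meis1, a partner of Hox proteins, fell (log2 change -0.94 ± 0.10 (SE), adjusted p = 0.0003), with -0.53, adjusted p = 0.00618 against siSCR, and Pax8 fell (log2 change -0.95 ± 0.14 (SE), adjusted p = 0.000906), with -0.49, adjusted p = 0.033 against siSCR. The other Hox partners Meis2 (log2 change -0.89 ± 0.15 (SE), adjusted p = 0.00145) and Pbx3 (log2 change -1.03 ± 0.21 (SE), adjusted p = 0.00439) were lower than in D3 and did not pass against siSCR, at -0.27, adjusted p = 0.22 for Meis2 and -0.63, adjusted p = 0.0566 for Pbx3. Of 24 forebrain factors, 2 were higher and 0 lower, with 7 higher without siPRMT1 replicate 1, 0 without D3 replicate 1 and 1 without siPRMT1 replicate 3, D3 replicate 2 or D3 replicate 3. Without siPRMT1 replicate 2, 3 of them were lower. Otx2 at 0.33, adjusted p = 0.152 and Emx2 at 0.19, adjusted p = 0.2 did not pass. Of 9 dorsal Pax and Zic factors, Zic2 (log2 change 0.72 ± 0.11 (SE), adjusted p = 0.00101) and Zic5 (log2 change 0.72 ± 0.13 (SE), adjusted p = 0.00263) were higher, neither against siSCR, at 0.30, adjusted p = 0.0841 for Zic2 and 0.18, adjusted p = 0.381 for Zic5. Without siPRMT1 replicate 1, 5 of the 9 were higher.

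Genes of dividing neural progenitors were lower than in D3 where they passed. The counts of this paragraph are read against 11.7% of all tested genes higher and 14.7% lower. Of 22 progenitor and radial glia genes, 9 were lower and 0 higher, with a median of -0.25, and 13 were lower when siPRMT1 replicate 2 was left out. With siSCR as the control, 7 were lower and 3 higher. Ptprz1, a phosphatase receptor of radial glia, read 6.95, 7.14 and 7.32 in siPRMT1 cultures, against 8.78, 8.92 and 8.64 in D3 cultures (log2 change -1.64 ± 0.16 (SE), adjusted p = 0.00018). Notch1 was lower (log2 change -0.51 ± 0.062 (SE), adjusted p = 0.000408). The core progenitor factors Sox2 (-0.14, adjusted p = 0.409), Hes5 (-0.21, adjusted p = 0.385) and Nes (-0.25, adjusted p = 0.313) did not pass. Among 18 proneural and neurogenic factors, 6 were lower and 0 higher, with a median of -0.33, and 10 were lower without siPRMT1 replicate 2. Among those lower, Myt1l, a factor that represses non-neuronal genes, read 6.54, 6.42 and 6.77 in siPRMT1 cultures, against 8.36, 8.42 and 8.34 in D3 cultures (log2 change -1.80 ± 0.27 (SE), adjusted p = 0.000937), and Ebf3 (log2 change -1.26 ± 0.15 (SE), adjusted p = 0.000354) and Myt1 (log2 change -1.07 ± 0.12 (SE), adjusted p = 0.000321) fell, with -0.75, adjusted p = 0.0065 for Ebf3 and -0.58, adjusted p = 0.00802 for Myt1 against siSCR. The early proneural genes Neurog1 at 0.02, adjusted p = 0.888, Neurog2 at -0.32, adjusted p = 0.0548 and Atoh1 at 0.24, adjusted p = 0.159 did not pass. With siSCR as the control, 5 of the proneural and neurogenic factors were lower and 3 higher.

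Early neural tube and undifferentiated-state genes leaned the other way, with 6 of 18 higher and 1 lower and a median of 0.46. Over all tested genes 11.7% were higher and 14.7% lower. Without siPRMT1 replicate 1 the higher count was 12. Beside Pim2, Lin28a and Prtg, Trim71, an RNA-binding partner of the Lin28 pathway, was higher at 9.0, 8.88 and 8.92 in siPRMT1 cultures, against 8.34, 8.24 and 8.25 in D3 cultures (log2 change 0.65 ± 0.10 (SE), adjusted p = 0.0011). Igdcc4 was lower (log2 change -0.33 ± 0.069 (SE), adjusted p = 0.00473). Fgf15 (0.86, adjusted p = 0.0856) and Crabp2 (0.64, adjusted p = 0.145) had sizeable differences that did not pass. The mean over the list, relative to D3, was 0.17, 0.99 and 0.49 in the siPRMT1 cultures, highest in replicate 2.

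The pluripotency list showed the same culture at the other end. Of 25 genes, 3 were higher and 0 lower, against 11.7% of all tested genes higher and 14.7% lower. The median of 0.084 was close to that of all genes, and the list mean was 0.52, -0.41 and 0.30 in the siPRMT1 cultures. When replicate 2 was left out, 13 genes were higher. Pou5f1, the core pluripotency factor, read 10.52, 10.04 and 10.34 in siPRMT1 cultures, against 9.68, 9.67 and 9.57 in D3 cultures (log2 change 0.66 ± 0.11 (SE), adjusted p = 0.00132), Sall4 was at 0.54, adjusted p = 0.0104 and L1td1 at 0.63, adjusted p = 0.00852. None of the 3 passed against siSCR, with 0.14, adjusted p = 0.383 for Pou5f1, 0.28, adjusted p = 0.163 for Sall4 and 0.29, adjusted p = 0.19 for L1td1. The part of stem cell RNA in the other results was not tested. The pan-neuronal list mean differed little among the same cultures, at -1.15, -1.02 and -1.05.

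**Figure D5:**
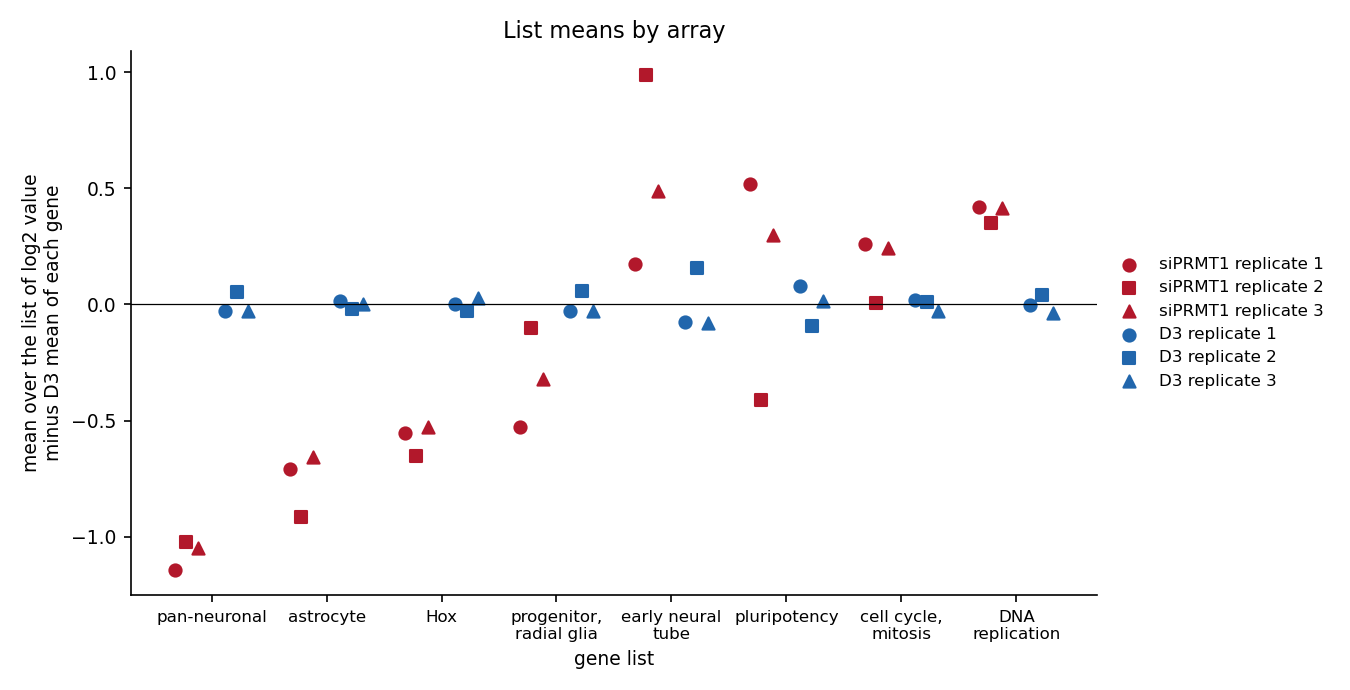
Each symbol is 1 array, as the mean over a list's tested genes of the log2 value minus the D3 mean of each gene, with siPRMT1 in red left of D3 in blue for 8 lists. The 3 siPRMT1 cultures are close together for pan-neuronal, Hox and DNA replication genes and spread for pluripotency genes, from -0.41 to 0.52.

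DNA replication genes were higher almost throughout. Of 28 tested, 25 were higher and 0 lower, against 11.7% of all tested genes higher, with a median of 0.40, and 18 to 24 were higher with 1 array left out. The changes were small and even. Mcm2, a subunit of the replicative helicase, read 10.37, 10.42 and 10.39 in siPRMT1 cultures, against 9.83, 9.85 and 9.80 in D3 cultures, without overlap (log2 change 0.57 ± 0.07 (SE), adjusted p = 0.000423). Tyms, which makes thymidylate, read 8.65, 9.17 and 8.70 in siPRMT1 cultures, against 8.19, 8.23 and 7.98 in D3 cultures (log2 change 0.70 ± 0.13 (SE), adjusted p = 0.00245). Mcm3 read 9.71, 9.33 and 9.62 in siPRMT1 cultures, against 8.98, 9.03 and 9.07 in D3 cultures (log2 change 0.53 ± 0.10 (SE), adjusted p = 0.0036), Gins2 was at 0.53, adjusted p = 0.00127 and Uhrf1, which carries DNA methylation through replication, at 0.41, adjusted p = 0.00291. All 6 helicase genes from Mcm2 to Mcm7 were higher, with a median of 0.46. Against siSCR, 18 of the list were higher, with smaller differences of 0.46, adjusted p = 0.0293 for Tyms, 0.31, adjusted p = 0.0288 for Gins2, 0.27, adjusted p = 0.0305 for Uhrf1 and 0.32, adjusted p = 0.053 for Mcm3.

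Mitosis genes did not share that evenness. Of 32 cell cycle and mitosis genes, 7 were higher and 0 lower, against 11.7% of all tested genes higher and 14.7% lower, with a median of 0.20. The higher count was 17 without siPRMT1 replicate 2, 1 without siPRMT1 replicate 1 and 2 without siPRMT1 replicate 3. It was 3 without D3 replicate 1, 1 without D3 replicate 2 and 2 without D3 replicate 3. Ccne1, the cyclin of S phase entry, was the firmest (log2 change 0.49 ± 0.085 (SE), adjusted p = 0.00178), but not against siSCR (0.23, adjusted p = 0.082). The proliferation marker Mki67 (0.03, adjusted p = 0.804) and Top2a (0.03, adjusted p = 0.852) did not pass.

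The promoters of the replication genes are shown for the letters they share. RefSeq promoters (GRCm38.p6, 250 bases before to 50 after the gene start) were matched for 11746 tested genes and 23 of the 28 replication genes. An E2F-like match is any of TTTCCCGC, TTTGGCGC, TTTCGCGC and TTTGCCGC on either strand, after the factors that switch on S phase genes. It was present in 10 of 23 replication promoters (43.5%), against 93 of 1369 for all higher genes (6.79%), 46 of 1714 for lower genes (2.68%) and 454 of 11746 for all tested genes (3.87%). The box CCAAT on either strand was present in 16 of 23 (69.6%), against 37.9% of all, and a match of one motif can share an end base with a match of the other. Mcm3, Cdt1 and Orc1 are printed as examples picked for their matches, with matches to either motif in capitals. Cdt1, which loads the helicase, was at 0.52, adjusted p = 0.0196, a call that ended without siPRMT1 replicate 1 or 3 or D3 replicate 1 or 2 (adjusted p = 0.0547 to 0.0729) and against siSCR (0.29, adjusted p = 0.185). Orc1, a subunit of the origin recognition complex, was at 0.50, adjusted p = 0.00377. A match describes these letters only.
Mcm3 promoter (chr1:20820263-20820562, minus strand): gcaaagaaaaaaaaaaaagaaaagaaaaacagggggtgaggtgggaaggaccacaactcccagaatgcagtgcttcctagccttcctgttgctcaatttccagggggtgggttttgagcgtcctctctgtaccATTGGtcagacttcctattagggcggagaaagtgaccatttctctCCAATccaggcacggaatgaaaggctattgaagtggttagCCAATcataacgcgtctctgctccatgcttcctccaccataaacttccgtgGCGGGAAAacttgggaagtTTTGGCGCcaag
Cdt1 promoter (chr8:122567765-122568064, plus strand): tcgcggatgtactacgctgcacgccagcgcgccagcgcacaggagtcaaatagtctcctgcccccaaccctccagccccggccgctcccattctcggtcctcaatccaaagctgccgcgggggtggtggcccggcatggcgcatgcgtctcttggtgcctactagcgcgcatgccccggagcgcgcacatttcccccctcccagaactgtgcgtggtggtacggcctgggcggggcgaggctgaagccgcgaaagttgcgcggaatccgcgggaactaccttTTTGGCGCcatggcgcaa
Orc1 promoter (chr4:108579204-108579503, plus strand): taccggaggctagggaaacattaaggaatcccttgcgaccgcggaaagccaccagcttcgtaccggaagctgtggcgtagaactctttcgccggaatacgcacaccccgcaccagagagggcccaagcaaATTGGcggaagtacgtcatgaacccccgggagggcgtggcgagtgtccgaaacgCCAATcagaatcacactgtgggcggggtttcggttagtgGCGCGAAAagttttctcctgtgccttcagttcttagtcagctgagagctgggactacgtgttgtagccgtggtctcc

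MicroRNA genes were singled out after their values were seen. MicroRNAs are short RNAs that pair through bases 2 to 8, the seed, with messenger RNAs and lower their output. The probe sets read the hairpin or its primary transcript, not the mature RNA. Of 133 microRNA genes tested, 13 were higher and 7 lower, smaller shares than the 11.7% higher and 14.7% lower of all tested genes, and 165 more lay below the brightness filter. These counts are no result about the class, and the values of single loci are described. Mature sequences from RefSeq (GRCm38.p6) were matched for 19 of the 20 that passed. The ones the results turn on are shown with the seed in capitals. miR-363-3p and miR-25-3p share the seed AUUGCAC, and miR-19a-3p and miR-19b-3p share GUGCAAA. The first 6 come from loci that were higher in siPRMT1 and the last 2 from loci that were lower.
miR-363-3p (chrX:52741697-52741718, minus strand): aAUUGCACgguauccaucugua
miR-25-3p (chr5:138165332-138165353, minus strand): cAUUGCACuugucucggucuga
miR-19a-3p (chr14:115044048-115044070, plus strand): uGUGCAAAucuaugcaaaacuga
miR-19b-3p (chr14:115044358-115044380, plus strand): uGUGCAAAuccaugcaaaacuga
miR-18a-5p (chr14:115043867-115043889, plus strand): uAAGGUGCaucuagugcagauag
miR-302d-3p (chr3:127545665-127545687, plus strand): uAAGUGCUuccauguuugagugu
miR-9-5p (chr3:88215613-88215635, plus strand): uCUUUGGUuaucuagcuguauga
miR-181b-5p (chr1:137966650-137966673, plus strand): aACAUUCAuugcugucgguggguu

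Mir363, of the X-linked cluster that carries the shared AUUGCAC seed, read 6.40, 6.93 and 6.63 in siPRMT1 cultures, against 4.77, 5.18 and 5.09 in D3 cultures, without overlap (log2 change 1.64 ± 0.18 (SE), adjusted p = 0.000321). The relatives on chromosome 14 rose together. Mir18 read 7.49, 7.69 and 7.78 in siPRMT1 cultures, against 6.80, 6.88 and 6.73 in D3 cultures (log2 change 0.85 ± 0.11 (SE), adjusted p = 0.000429), Mir19a read 5.89, 6.05 and 5.77 in siPRMT1 cultures, against 5.06, 5.03 and 4.84 in D3 cultures (log2 change 0.93 ± 0.12 (SE), adjusted p = 0.000434), and Mir19b-1 and the host transcript Mir17hg were at 0.58, adjusted p = 0.00928 and 0.65, adjusted p = 0.00561. These growth-promoting microRNAs are made from that 1 transcript, so they are not independent. Mir18 was as far above siSCR as above D3, at 0.86, adjusted p = 0.00076. Mir302d, of the cluster that marks pluripotent cells, read 5.48, 7.21 and 5.87 in siPRMT1 cultures, against 4.78, 4.46 and 4.6 in D3 cultures, with replicate 2 highest (log2 change 1.58 ± 0.44 (SE), adjusted p = 0.0202). That call ended without D3 replicate 2 (1.5, adjusted p = 0.0652) or D3 replicate 3 (1.57, adjusted p = 0.0571). Mir302d lies inside Larp7, whose own difference was 0.33, adjusted p = 0.0524. Mir363, Mir19a and Mir302d averaged below the 5.43 brightness filter in D3 (5.01, 4.98 and 4.61) and in siSCR (5.30, 5.09 and 4.38). They were tested only because the knockdown arrays were high, so the filter favoured higher calls at these loci.

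Mir25 read 7.32, 7.66 and 7.48 in siPRMT1 cultures, against 7.14, 7.0 and 7.08 in D3 cultures (log2 change 0.41 ± 0.11 (SE), adjusted p = 0.0195), and Mir93 and Mir106b from the same intronic cluster of Mcm7 were at 0.36, adjusted p = 0.0166 and 0.28, adjusted p = 0.0228. Their host Mcm7 was at 0.43, adjusted p = 0.00266. The Mir25 and Mir106b calls ended without siPRMT1 replicate 3 or D3 replicate 2 or 3 (adjusted p = 0.0507 to 0.0708 for Mir25 and adjusted p = 0.058 to 0.0747 for Mir106b), that of Mir93 without siPRMT1 replicate 3 or D3 replicate 1 (adjusted p = 0.0628 to 0.0643), and none of these 3 passed against siSCR, at 0.31, adjusted p = 0.081 for Mir25, 0.20, adjusted p = 0.163 for Mir93 and 0.18, adjusted p = 0.129 for Mir106b.

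Of the lower loci, Mir9-1, which gives the neural microRNA miR-9, read 5.46, 5.71 and 5.19 in siPRMT1 cultures, against 6.03, 6.04 and 5.90 in D3 cultures (log2 change -0.54 ± 0.11 (SE), adjusted p = 0.00384). Mir181b-1 read 6.95, 7.51 and 7.48 in siPRMT1 cultures, against 8.34, 8.43 and 8.37 in D3 cultures (log2 change -1.07 ± 0.19 (SE), adjusted p = 0.00211), and it did not pass against siSCR (-0.44, adjusted p = 0.132). The other miR-181b gene, Mir181b-2, leaned higher without passing (0.36, adjusted p = 0.125), so these values do not give the level of mature miR-181b. The host transcript Mir100hg had the largest decrease, at 7.95, 7.72 and 8.10 in siPRMT1 cultures, against 9.50, 9.57 and 9.53 in D3 cultures (log2 change -1.61 ± 0.17 (SE), adjusted p = 0.000263). The counts moved with single arrays, to 18 higher without siPRMT1 replicate 1 and to 7 without siPRMT1 replicate 3, D3 replicate 2 or D3 replicate 3. The lower count was 3 without siPRMT1 replicate 1, 3 without D3 replicate 3 and 4 without siPRMT1 replicate 3, D3 replicate 1 or D3 replicate 2.

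Small nucleolar RNA genes, also singled out after their values were seen, guide chemical changes on ribosomal RNA. Of 50 tested, 29 were higher in siPRMT1 and 0 lower, against 11.7% of all tested genes higher and 14.7% lower, with a median of 0.34, and 21 to 31 were higher with 1 array left out. Snord118, which acts in ribosomal RNA cleavage, read 10.06, 10.34 and 10.20 in siPRMT1 cultures, against 9.22, 9.64 and 9.56 in D3 cultures, without overlap (log2 change 0.73 ± 0.14 (SE), adjusted p = 0.00341). Snora41 read 6.10, 6.14 and 6.18 in siPRMT1 cultures, against 5.32, 5.39 and 5.55 in D3 cultures (log2 change 0.72 ± 0.094 (SE), adjusted p = 0.000502), and Snora73a read 10.06, 10.01 and 10.16 in siPRMT1 cultures, against 9.35, 9.37 and 9.42 in D3 cultures (log2 change 0.70 ± 0.098 (SE), adjusted p = 0.000678). Against siSCR, 20 of the 50 were higher, with 0.46, adjusted p = 0.00702 for Snora41 and 0.38, adjusted p = 0.0208 for Snora73a. Of the 29, 13 lie inside 12 tested host genes. Of these hosts, 3 were higher and 0 lower, beside the 11.7% and 14.7% of all tested genes. The median host difference was 0.0927, against 0.0507 over all tested genes. The ribosomal protein genes showed 4 of 65 higher and 2 lower, with a median of 0.0439.

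PRMT1 methylates many RNA-binding proteins, so their genes were read as a list. Of 26 tested, 4 were higher and 2 lower, against 11.7% of all tested genes higher and 14.7% lower. The median was 0.0693, and 2 were higher without D3 replicate 1 or D3 replicate 3. Only 1 was lower without siPRMT1 replicate 1 or 3 or any of the 3 D3 arrays. Fbl, the nucleolar methyltransferase fibrillarin (log2 change 0.38 ± 0.082 (SE), adjusted p = 0.006), and Ncl, nucleolin (log2 change 0.27 ± 0.059 (SE), adjusted p = 0.00704), were higher than in D3 and did not pass against siSCR, at 0.19, adjusted p = 0.135 for Fbl and 0.17, adjusted p = 0.0682 for Ncl. Khdrbs2, a neuronal splicing factor related to the PRMT1 substrate Sam68, read 5.74, 5.98 and 6.18 in siPRMT1 cultures, against 6.93, 7.0 and 6.85 in D3 cultures and was lower (log2 change -0.96 ± 0.17 (SE), adjusted p = 0.00176). Ewsr1 (0.11, adjusted p = 0.163), Taf15 (0.15, adjusted p = 0.0639), Hnrnpk (-0.03, adjusted p = 0.744) and Khdrbs1 (0.01, adjusted p = 0.929), which encode known PRMT1 substrates, did not pass.

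The signalling lists are read against 11.7% of all tested genes higher and 14.7% lower. In the hedgehog pathway, 3 of 14 genes were lower and 1 higher. The higher count was 3 without siPRMT1 replicate 1 and 0 without siPRMT1 replicate 3, D3 replicate 2 or D3 replicate 3. The ligand Shh read 7.03, 7.03 and 6.87 in siPRMT1 cultures, against 7.76, 7.73 and 7.67 in D3 cultures (log2 change -0.74 ± 0.094 (SE), adjusted p = 0.000455), while Hhip, which hedgehog signals induce and which binds and blocks them, read 5.62, 5.62 and 5.87 in siPRMT1 cultures, against 7.0, 6.78 and 6.96 in D3 cultures (log2 change -1.21 ± 0.13 (SE), adjusted p = 0.000265). The target Gli1 was at 0.04, adjusted p = 0.746. In the Notch pathway, 4 of 20 were lower and 0 higher, and the targets Hes1 (-0.18, adjusted p = 0.102) and Hes5 did not pass. Without siPRMT1 replicate 2 the Notch count was 8, and it was 2 without siPRMT1 replicate 1, siPRMT1 replicate 3 or D3 replicate 1 and 1 without D3 replicate 2. Among 21 BMP genes, 3 were lower and 0 higher. Without siPRMT1 replicate 2 the lower count was 5, and without siPRMT1 replicate 1 it was 2 and the higher count was 4.

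Of 36 Wnt genes, 8 were higher and 5 lower. The higher count was 4 without siPRMT1 replicate 3, 4 without D3 replicate 1, 3 without D3 replicate 2 and 2 without D3 replicate 3, and the lower count was 8 without siPRMT1 replicate 2. Lef1 was highest, and Rspo1, a secreted enhancer of Wnt signals, was at 0.38, adjusted p = 0.00993. Lgr5, a receptor for R-spondins, read 5.74, 6.32 and 6.15 in siPRMT1 cultures, against 7.26, 7.19 and 7.22 in D3 cultures (log2 change -1.15 ± 0.18 (SE), adjusted p = 0.0011). The ligands Wnt5a (log2 change -0.68 ± 0.11 (SE), adjusted p = 0.00113) and Wnt7a (log2 change -0.62 ± 0.11 (SE), adjusted p = 0.00231) were lower than in D3 and did not pass against siSCR, at -0.33, adjusted p = 0.0537 for Wnt5a and -0.28, adjusted p = 0.104 for Wnt7a. The target Axin2 did not pass (-0.13, adjusted p = 0.609).

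Of 25 FGF genes, 4 were higher and 5 lower. Higher were the secreted Fgf5 and the feedback inhibitor Spry2 (log2 change 0.44 ± 0.083 (SE), adjusted p = 0.00278), and lower were 3 intracellular factors that bind sodium channels, Fgf12 (log2 change -1.40 ± 0.28 (SE), adjusted p = 0.00416), Fgf13 (log2 change -1.0 ± 0.18 (SE), adjusted p = 0.00248) and Fgf11 (log2 change -0.60 ± 0.15 (SE), adjusted p = 0.0123). Of 23 retinoic acid genes, 3 were higher, 5 without siPRMT1 replicate 1, and 7 lower. Rarg, a receptor (log2 change 0.74 ± 0.094 (SE), adjusted p = 0.000458), and Dhrs3, a retinal reductase (log2 change 0.62 ± 0.12 (SE), adjusted p = 0.00396), were higher than in D3 but not than in siSCR, at 0.16, adjusted p = 0.272 for Rarg and 0.24, adjusted p = 0.202 for Dhrs3, and Tshz1 was lower (log2 change -1.20 ± 0.16 (SE), adjusted p = 0.00056). The FGF count was 8 higher without siPRMT1 replicate 2, and 2 higher without siPRMT1 replicate 3, D3 replicate 1 or D3 replicate 3. Its lower count was 3 without siPRMT1 replicate 3, D3 replicate 2 or D3 replicate 3.

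Markers of other cell types, beside the glial genes above, are read against 11.7% of all tested genes higher and 14.7% lower. Of 23 mesenchymal genes, 3 were lower and 0 higher, and 7 were lower against siSCR. Of 14 neural crest genes, 2 were lower, Tfap2a (log2 change -1.70 ± 0.096 (SE), adjusted p = 1.41e-05) and the endothelin receptor Ednrb (log2 change -0.81 ± 0.13 (SE), adjusted p = 0.00118), with -0.40, adjusted p = 0.0515 against siSCR for Ednrb. The 2 higher ones, Snai2 at 0.33, adjusted p = 0.04 and Ets1 at 0.19, adjusted p = 0.0495, both lost their calls without any 1 of the D3 arrays (adjusted p = 0.0679 to 0.129 for Snai2 and adjusted p = 0.086 to 0.152 for Ets1). Of 11 endoderm genes 1 was higher, Gata6 at 0.29, adjusted p = 0.028, a call lost without siPRMT1 replicate 2 or D3 replicate 2 or 3 (adjusted p = 0.0634 to 0.11). Of 12 muscle genes 1 was higher and 1 lower, and the lower call was lost with any siPRMT1 or D3 array left out. Dcn, a matrix proteoglycan, was lower (log2 change -1.10 ± 0.25 (SE), adjusted p = 0.00752), and the collagens Col1a1 (-0.12, adjusted p = 0.236) and Col3a1 (-0.19, adjusted p = 0.0594) did not pass. Of 11 endothelial and blood genes, 1 was higher, 2 without siPRMT1 replicate 2 and 0 without siPRMT1 replicate 3, D3 replicate 1 or D3 replicate 2, and 1 was lower. Flt1 was lower (log2 change -0.59 ± 0.11 (SE), adjusted p = 0.00228), with -0.39, adjusted p = 0.0257 against siSCR, and Pecam1 (-0.23, adjusted p = 0.609) did not pass. Of 8 myeloid genes 0 passed in either direction. Among 15 epithelial genes 2 were higher, Krt5 and the epithelial factor Grhl2 (log2 change 0.78 ± 0.14 (SE), adjusted p = 0.00212), the last at 0.50, adjusted p = 0.0278 against siSCR. Without siPRMT1 replicate 2 the count was 5. Epcam (0.24, adjusted p = 0.329) and Cdh1 (0.33, adjusted p = 0.152) did not pass.

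Few genes passed between the 2 knockdown lines. siPRMT1 differed from siPRMT8 for 23 of 14953 genes (0.154%), while siPRMT1 differed from siSCR for 2801 genes (18.7%), siPRMT8 from D3 for 4135 (27.7%) and siSCR from D3 for 23 (0.154%). The siPRMT1 and siPRMT8 comparisons with D3 share the D3 arrays, and values are given side by side. Tac1 was at -2.40, adjusted p = 0.0125 in siPRMT8 against D3, Scn2a at -2.17, adjusted p = 0.00193, Dnmt3b at 1.26, adjusted p = 0.000429, Hoxb5 at -1.12, adjusted p = 0.000607 and Mir363 at 1.95, adjusted p = 0.000301. The siPRMT8 cultures read 6.44, 6.17 and 6.44 for Prmt8, and the 2 knockdowns did not differ in it at the threshold, with an siPRMT1 minus siPRMT8 difference of 0.29, adjusted p = 0.489.

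The genes that did differ between the knockdowns were chosen after their values were seen. Prmt1 had the smallest adjusted p. Pga5, a pepsinogen, read 9.80, 9.85 and 9.54 in siPRMT1, 8.70, 8.63 and 8.68 in siPRMT8, 8.65, 8.22 and 8.39 in siSCR and 8.55, 8.46 and 8.63 in D3, so it was high in siPRMT1 cultures alone (log2 difference 1.06 ± 0.11 (SE), adjusted p = 0.00407). Aspa, an enzyme that splits N-acetylaspartate, read 7.46, 6.97 and 7.22 in siPRMT1, 6.30, 6.45 and 6.46 in siPRMT8, 6.47, 6.27 and 6.35 in siSCR and 6.57, 6.16 and 6.40 in D3 (log2 difference 0.81 ± 0.13 (SE), adjusted p = 0.0357). Agtr1a, an angiotensin receptor, was higher in siPRMT1 than in siPRMT8 (log2 difference 0.52 ± 0.073 (SE), adjusted p = 0.0214) and D3 (log2 change 0.54 ± 0.073 (SE), adjusted p = 0.000542). On the lower side, Mgst1, a glutathione transferase (log2 difference -0.50 ± 0.066 (SE), adjusted p = 0.0162), and Pdgfc, a growth factor (log2 difference -0.55 ± 0.091 (SE), adjusted p = 0.0493), were below both siPRMT8 and D3, with D3 differences of -0.43, adjusted p = 0.00102 for Mgst1 and -0.62, adjusted p = 0.000825 for Pdgfc.

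Tfap2a, a factor of neural crest and of some spinal interneurons, lay below D3 in all 3 other groups. It read 7.03, 7.13 and 7.02 in siPRMT1, 7.58, 7.75 and 7.62 in siPRMT8, 7.34, 7.61 and 7.69 in siSCR and 8.82, 8.60 and 8.85 in D3. The siPRMT1 values were lowest and did not overlap any other group, with a difference from D3 of log2 change -1.70 ± 0.096 (SE), adjusted p = 1.41e-05. Against siPRMT8 it was lower (log2 difference -0.59 ± 0.096 (SE), adjusted p = 0.0443), and against siSCR the difference was -0.49, adjusted p = 0.00614. The immediate early gene Jund was lower than D3 in siPRMT1 (log2 change -0.34 ± 0.067 (SE), adjusted p = 0.00336) and above siPRMT8 (log2 difference 0.42 ± 0.067 (SE), adjusted p = 0.0417).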

How the data were processed

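Total RNA of 12 cultures at day 16 was hybridised to 12 one-colour whole-transcript arrays, per the labels' protocols. The authors deposited a matrix of log2 values for 35556 probe sets. Its normalization is not given in the sources used here, and array medians lay within 0.023 of each other. Probe sets were named from the platform annotation: 21789 had 1 symbol, 1621 several and 12146 none, and 21698 were matched to current symbols by gene ID. Where a gene had several probe sets (999 genes), the brightest by its 12-array mean was kept. The lowest 25% of genes by mean, under 5.43, were left out. As that mean covers all 12 arrays, a gene dim in some groups can be tested through the groups where it is bright. limma 3.58.1 in R 4.3.3 (lmFit, eBayes) fitted 4 group means over all 12 arrays leaving 8 residual degrees of freedom; Benjamini-Hochberg adjustment ran over all 14953 genes, and 0.05 was the threshold. The script was tested on simulated data. Precision is limited by 3 arrays a group. No 2 arrays were identical, and scan dates or other batches were not used here.

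Named genes were the PRMT family, the 15 higher and 15 lower genes with the largest changes among those that passed without overlap, up to 4 passing members of each list in each direction, the cell type markers and all Hox genes. Predicted genes, small RNA genes and similar classes were counted and are named only where stated. Members, lists and the rule were chosen with earlier results of these data known. Same-numbered siPRMT1 and D3 arrays deviated together with r of 0.29, 0.267 and -0.0353, against -0.32 to 0.116 for arrays of different numbers. Whether the cultures were paired cannot be told from 3 arrays a group. The main fit treated them as unpaired, and a fit with the replicate number as a block is given below. Alternatives covered the control, the filter, the probe set rule, the scaling, the variance model and each array left out.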

Additional observations from a re-analysis of the deposited data

How the results depend on the processing

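Against 3952 changed genes (1750 higher, 2202 lower), leaving out 1 siPRMT1 or D3 array gave 2643 to 4639 changed, 935 to 2302 higher and 1665 to 2337 lower. Median centring gave 3485 higher, quantile normalization 2575 higher, and array weights 6592 changed and 3652 higher. A test against a 1.2-fold change gave 828 changed, 64 higher and 764 lower, since it asks for a larger change, and 118 of 230 named genes that passed still did. With siSCR as the control 1073 were higher, 156 of the 230 remained called in the same direction and 65 did not pass. Leaving out siSCR replicate 1 and siPRMT1 replicate 2 together, chosen after seeing the data, gave 2969 higher. The replicate block gave 3608 changed (1494 higher, 2114 lower). With siSCR as the control, 10 of the named genes called against D3 or siSCR had the opposite sign: Fgf1 -0.11, Gli2 -0.0014, Hoxa10 -0.15, Krt5 -0.31, Nrarp 0.10, Pax6 0.16, Pdgfra 0.30, Rbp4 -0.29, Rhox9 0.033 and Sema3e -0.048. The cause was not tested. The other alternatives kept the counts over all tested genes within 1.5 times. Counts within gene lists moved more. Of 104 list counts, 24 to 30 moved by over 1.5 times with 1 siPRMT1 or D3 array left out, 48 with siSCR as the control, 44 with array weights, 30 with median centring and 64 in the 1.2-fold test, where DNA replication genes had 2 higher and snoRNA genes 4. With the lowest 50% of genes left out, 25 fell, since fewer members were tested, to 4 lower potassium channel genes, 8 lower Hox genes, 7 lower protocadherins and 0 lower FGF genes. Median centring gave 25 higher microRNA genes. Array number limits what can be seen: 5950 genes had an unadjusted p under 0.05, and a gene that did not pass is not shown to be unchanged. Saturation and background were not measurable from these values.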

Other observations

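Immediate early genes, which neurons switch on within minutes of activity, were lower in 3 of 19 tested and higher in 1. Over all tested genes 14.7% were lower and 11.7% higher, so these counts are no result about the list. Jun read 8.19, 8.28 and 8.27 in siPRMT1 cultures, against 9.05, 8.98 and 8.83 in D3 cultures, without overlap (log2 change -0.71 ± 0.13 (SE), adjusted p = 0.00292), and Jund and Nr4a3 were the other lower members, at -0.34, adjusted p = 0.00336 for Jund and -0.27, adjusted p = 0.0138 for Nr4a3. The activity genes Fos (-0.28, adjusted p = 0.0883), Arc (0.17, adjusted p = 0.255) and Bdnf (0.15, adjusted p = 0.209) did not pass. The higher call, Egr4 at 0.30, adjusted p = 0.0276, was lost without siPRMT1 replicate 1 or 2 or D3 replicate 1 or 2 (adjusted p = 0.0598 to 0.11) and against siSCR (0.20, adjusted p = 0.137).

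Stress genes were mixed. Of 20 ER stress and hypoxia genes, 3 were higher and 4 lower, against 11.7% of all tested genes higher and 14.7% lower. The higher count was 5 without siPRMT1 replicate 1, 1 without siPRMT1 replicate 3, D3 replicate 2 or D3 replicate 3 and 0 without D3 replicate 1. Vegfa, the vascular growth factor induced by low oxygen, read 8.52, 8.43 and 8.66 in siPRMT1 cultures, against 9.0, 9.0 and 8.99 in D3 cultures and was lower (log2 change -0.46 ± 0.093 (SE), adjusted p = 0.00396). Pfkfb3, a regulator of glycolysis, was lower too (log2 change -0.53 ± 0.12 (SE), adjusted p = 0.0072). Hspa5 (0.03, adjusted p = 0.683) and Ddit3 (-0.03, adjusted p = 0.841), classic ER stress genes, did not pass. Of 15 interferon and MHC class I genes, 1 was higher and 1 lower. The proteasome subunit gene Psmb9 was called higher at 0.24, adjusted p = 0.0314, but not without siPRMT1 replicate 1 or 2 or D3 replicate 1 or 2 (adjusted p = 0.0623 to 0.129) or against siSCR (0.14, adjusted p = 0.212). Ifi27 was lower at 8.16, 7.46 and 8.19 in siPRMT1 cultures, against 8.69, 8.67 and 8.80 in D3 cultures (log2 change -0.78 ± 0.17 (SE), adjusted p = 0.00661), while Bst2 (0.22, adjusted p = 0.127) and Ifit1 (0.09, adjusted p = 0.644) did not pass.

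Of 28 DNA methylation and polycomb genes, 3 were higher and 3 lower, against 11.7% of all tested genes higher and 14.7% lower. The higher count was 6 without siPRMT1 replicate 2, and the lower count was 0 without siPRMT1 replicate 1, siPRMT1 replicate 3 or D3 replicate 2 and 1 without D3 replicate 1 or D3 replicate 3. Dnmt3a was also called higher, by less than Dnmt3b, and was at 0.26, adjusted p = 0.0223 without siPRMT1 replicate 1. Its call was lost without siPRMT1 replicate 3 (0.20, adjusted p = 0.063) or D3 replicate 3 (0.22, adjusted p = 0.0609). Against siSCR Dnmt3a did not pass (0.13, adjusted p = 0.166). Dnmt3b stood out from the maintenance enzyme Dnmt1 at 0.12, adjusted p = 0.187, the polycomb methyltransferase Ezh2 at 0.07, adjusted p = 0.41 and the oxidase Tet1 at -0.03, adjusted p = 0.942, which did not pass. The neuronal gene repressor Rest did not pass either (0.18, adjusted p = 0.358). Of 19 cholesterol and fatty acid synthesis genes, 2 were lower and 0 higher, with 0 lower without siPRMT1 replicate 1 or D3 replicate 2 and 1 lower without siPRMT1 replicate 3 or D3 replicate 1.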
